A study of Mus musculus with 4 samples.

Results

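The dystrophin complex and its laminin ligands were examined in muscle stem cells (MuSCs) of plantaris muscle with and without mechanical overload. The set held 10 genes, taken by symbol from a table of 19353 genes: Dmd (dystrophin), Utrn (utrophin), Dag1 (dystroglycan), the sarcoglycans Sgca, Sgcb and Sgcd, and the laminin chains Lama2, Lama5, Lamb1 and Lamc1. All 10 had a row. The cells of both groups carried Pax7-CreERT2:Rosa-YFP, in which a tamoxifen-activated Cre recombinase made under the control of Pax7 switches on yellow fluorescent protein (YFP), so that YFP marks cells that had Pax7 when Cre was active and also their progeny. In the overloaded group the Achilles tendon had been cut (tenotomy), which shifts load onto the plantaris, and the sham group had sham surgery. Cells were collected 4 days after surgery, sorted by YFP and pooled at 100 cells per tube, and each tube gave 1 library, with 2 libraries per group. The age of the mice, and whether both libraries of a group came from different animals, are not given in the sources used here. Whether sham and overloaded muscle came from the same animals is not given for these libraries either. In other experiments the study used the contralateral muscle as sham. The p-values thus measure only the spread between these libraries, which may be technical.

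Dystrophin lies under the plasma membrane and ties the actin cytoskeleton to dystroglycan, which crosses the membrane and holds laminin in the basement membrane outside. Sarcoglycans and sarcospan steady this link, syntrophins and dystrobrevins dock signaling proteins to it, and utrophin is a paralog that can take the place of dystrophin. Laminins are trimers of an alpha, a beta and a gamma chain, and the trimer of the Lama2, Lamb1 and Lamc1 chains is the main laminin around muscle fibres. MuSCs sit under that basement membrane, and in activated MuSCs dystrophin is known to bind the polarity kinase Mark2 and to take part in orienting asymmetric division. Loss of dystrophin, of a sarcoglycan or of the Lama2 chain each gives a form of muscular dystrophy.

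Expression was measured by CEL-Seq2, which primes on the poly(A) tail and gives every captured molecule a random barcode (unique molecular identifier, UMI), which makes each count a tally of molecules that does not grow with transcript length. Totals were 269683 and 260488 UMIs in sham libraries 1 and 2, and 387955 and 483528 UMIs in overloaded libraries 1 and 2. UMIs per cell were thus 2697 and 2605 against 3880 and 4835. Levels are given as TMM-normalized CPM, which are counts scaled to a common library total by a method that takes most genes as equal between libraries. A count of 3 was worth 13.1 and 13.6 CPM in the sham libraries and 7.8 and 6.08 CPM in the overloaded libraries. Pax7, the transcription factor that defines MuSCs, was present in each library, with 118 and 107 UMIs in sham and 108 and 137 UMIs in overloaded muscle. As a level this was 514 and 485 CPM against 281 and 277 CPM, a log2 ratio of -0.84 (adjusted p = 0.000635, edgeR), and in UMIs per tube the ratio was 0.12 (adjusted p = 0.619, edgeR).

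With TMM scaling, Dmd and Lama2 fell in overloaded MuSCs, Sgcb and Lamb1 rose, and Dag1, Lamc1 and Utrn were lower by a smaller amount whose direction turned with other scalings. Of 9 genes that could be tested, 7 passed an adjusted p under 0.1 in edgeR's quasi-likelihood test, beside 52.1% of the 7228 genes tested. The 9 include Lama5, which had enough counts to be tested only in the overloaded libraries. Of the 9, 2 were higher, beside 25.8% of all genes, and 5 were lower, beside 26.3%. In all 9 the CPM of the groups did not overlap, as in 72.9% of all genes tested, with overloaded above in 4 (37.5% of all genes) and below in 5 (35.4%). The median log2 fold change of the 9 was -0.47, beside 0.05 over all genes. Because libraries are pools, fewer cells with a transcript and less transcript per cell cannot be told apart.

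**Figure D1:**
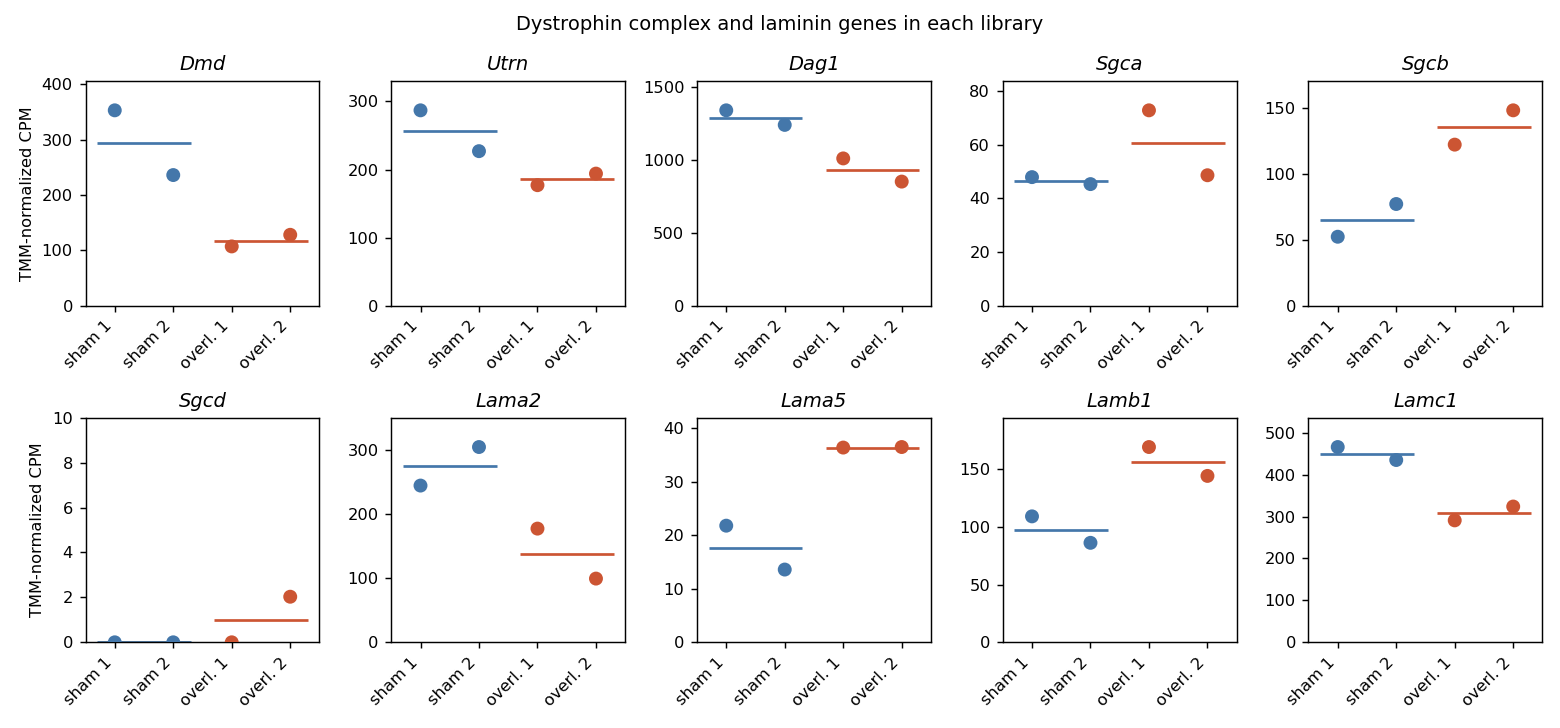
Each panel shows the TMM-normalized CPM of 1 gene (vertical axis from 0, scaled per gene) in the 2 sham (blue) and 2 overloaded (red) libraries, with a line at the group mean. Points of Dmd and Lama2 lie lower in overloaded libraries and points of Sgcb and Lamb1 higher, while those of Utrn, Dag1 and Lamc1 lie lower with this scaling but higher in UMIs per tube, and Sgcd had 1 UMI in all.

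The promoters of the 2 genes past the threshold that fell most, Dmd and Lama2, and of the 2 that rose past it, Sgcb and Lamb1, are shown with the motifs of muscle regulators. The sequences are the bases before the start site in RefSeq (GRCm38.p6), up to 250 bases, read 5′ to 3′ on the gene's strand and shortened where the annotation places an exon. Capitals mark the E-box (CANNTG), which myogenic factors such as MyoD bind in some of its forms, and the CArG box, the element of serum response factor. Both motifs read the same on either strand, and no 2 of the matches shown overlap. Dmd has 2 starts here, an upstream start for the full-length dystrophin and a downstream start for a short form that keeps the carboxyl end. The upstream Dmd promoter is chrX:82948620-82948869 (plus strand), the downstream Dmd promoter chrX:85048045-85048294 (plus), that of Lama2 chr10:27616943-27617192 (minus), that of Sgcb chr5:73647791-73647987 (minus) and that of Lamb1 chr12:31265043-31265233 (plus).
Dmd, upstream start: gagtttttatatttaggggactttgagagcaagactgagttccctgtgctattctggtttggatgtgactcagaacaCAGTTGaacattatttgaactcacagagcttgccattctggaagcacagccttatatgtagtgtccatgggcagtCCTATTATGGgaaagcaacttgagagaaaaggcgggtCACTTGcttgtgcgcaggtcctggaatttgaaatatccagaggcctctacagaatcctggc
Dmd, downstream start: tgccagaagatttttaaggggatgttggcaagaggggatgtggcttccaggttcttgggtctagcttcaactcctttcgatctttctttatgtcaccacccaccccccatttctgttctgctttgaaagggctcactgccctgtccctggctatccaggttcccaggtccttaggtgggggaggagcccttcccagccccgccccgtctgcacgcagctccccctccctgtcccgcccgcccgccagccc
Lama2: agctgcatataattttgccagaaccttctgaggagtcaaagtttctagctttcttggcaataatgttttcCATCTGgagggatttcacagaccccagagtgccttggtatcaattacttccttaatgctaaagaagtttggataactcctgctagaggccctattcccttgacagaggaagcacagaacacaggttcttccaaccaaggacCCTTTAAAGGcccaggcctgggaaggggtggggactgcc
Sgcb: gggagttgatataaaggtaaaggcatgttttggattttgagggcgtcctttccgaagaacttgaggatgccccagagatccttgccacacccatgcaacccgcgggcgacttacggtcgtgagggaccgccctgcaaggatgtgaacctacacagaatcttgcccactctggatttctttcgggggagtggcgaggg
Lamb1: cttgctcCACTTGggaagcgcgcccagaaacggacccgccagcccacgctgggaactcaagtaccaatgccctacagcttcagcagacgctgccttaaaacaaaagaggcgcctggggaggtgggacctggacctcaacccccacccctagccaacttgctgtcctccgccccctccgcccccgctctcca
A CArG box was in 1.47% of 32851 mouse promoters of 250 bases and in 2 of 11 entries found for 9 of the 10 genes. The 2 entries were the upstream Dmd promoter and the Lama2 promoter. An E-box was in 66.2% of all promoters and in 9 of 11 entries found for 9 of the 10 genes, some of them shortened, with none in the windows shown for Sgcb and for the downstream Dmd start. A match describes the letters only, and no binding was measured here.

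Dystrophin transcripts had the lowest log2 fold change of the set with TMM, ahead of Lama2, an order that turned without sham library 1 (-1.03 against -1.20) and without overloaded library 1 (-1.18 against -1.44). Dmd (ENSMUSG00000045103, chrX:82948870-85206141, plus strand, GRCm38) spans 2257 kb and its longest transcript has 79 exons. It had 81 and 52 UMIs in the sham libraries and 41 and 63 UMIs in the overloaded libraries, which is 353 and 236 CPM against 107 and 128 CPM. The raw counts overlapped and the scaled levels did not. The mean was 294 ± 82.7 CPM in sham and 117 ± 14.8 CPM in overloaded muscle (SD, n = 2 each). On the log2 scale this was -1.32 with a standard error of 0.23 (adjusted p = 0.000185, edgeR). All 3 protein-coding transcripts of the annotation end within 5 kb of the gene's end, so the count joins the long and the short dystrophin messages and cannot tell which of them fell. Counted as UMIs per tube, with no scaling by library size, the log2 fold change was -0.35 (adjusted p = 0.338, edgeR), and the direction was negative in each of 13 alternatives, with the call lost only there.

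Utrophin, the paralog of dystrophin, kept more of its level. Utrn (ENSMUSG00000019820, chr10:12382188-12869365, minus strand) had 66 and 50 UMIs in sham and 68 and 96 UMIs in overloaded libraries, or 287 and 227 CPM against 177 and 194 CPM. Its mean went from 257 ± 43 to 186 ± 12.4 CPM (SD, n = 2 each), which passed on the log2 scale at -0.47 (SE 0.2, adjusted p = 0.0641, edgeR). This call was lost in 9 of 13 alternatives, among them UMIs per tube, where the sign turned to 0.50 (adjusted p = 0.131, edgeR). Leaving out sham library 1 gave -0.32 (adjusted p = 0.41), leaving out overloaded library 1 gave -0.38 (0.19) and leaving out overloaded library 2 gave -0.50 (0.11), all in edgeR. Counted against each other within a library, which no scaling of whole libraries affects, Utrn made up 44.9% and 49.0% of the UMIs of the pair Utrn and Dmd in sham and 62.4% and 60.4% in overloaded libraries. The Clopper-Pearson 95% intervals, which cover counting error only, ran from 36.7% to 53.3% and from 39.0% to 59.1% in sham and from 52.6% to 71.5% and from 52.3% to 68.0% in overloaded muscle, so that neighbouring intervals of the groups overlapped. The share was higher in both overloaded libraries than in either sham library.

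Dag1 (ENSMUSG00000039952, chr9:108204634-108263958, minus strand), the precursor of both dystroglycan subunits, was the most abundant gene of the set. It had 307 and 274 UMIs in sham and 387 and 420 UMIs in overloaded libraries, which was 45.8% and 46.6% of the UMIs of all 10 genes in sham and 46.6% and 43.1% in overloaded muscle. With TMM scaling the levels were 1340 and 1240 CPM against 1010 and 851 CPM, with means of 1290 ± 67.2 and 928 ± 110 CPM (SD, n = 2 each), which is -0.48 as a log2 fold change (SE 0.16, adjusted p = 0.022, edgeR). Both overloaded libraries held more Dag1 molecules per tube than either sham library, but a smaller share of all molecules. Per tube the log2 fold change was 0.47 (adjusted p = 0.00691), and with offsets that level fold changes over gene abundance it was 0.55 (adjusted p = 0.000872), both past the threshold in the opposite direction in edgeR. With library sizes alone it was -0.20 (adjusted p = 0.262, edgeR), and without sham library 1 it was -0.46 (adjusted p = 0.19, edgeR).

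The sarcoglycans, which form a membrane complex beside dystroglycan, ranged from a rise to near absence. Sgcb (ENSMUSG00000029156, chr5:73632749-73647790, minus strand) had 12 and 17 UMIs in sham and 47 and 73 UMIs in overloaded libraries, or 52.2 and 77 CPM against 122 and 148 CPM. The mean of 64.6 ± 17.5 CPM rose to 135 ± 18.1 CPM (SD, n = 2 each), or by 1.07 on the log2 scale (SE 0.3, adjusted p = 0.00705, edgeR). It was past the threshold in all 13 alternatives, with log2 fold changes from 0.78 to 2.04, and is the only gene of the set for which this held. Relative to Dag1, Sgcb made up 3.76% and 5.84% of the UMIs of both genes in sham and 10.8% and 14.8% in overloaded libraries. With offsets for abundance the log2 fold changes of Sgcb and Dag1 lay closer, at 1 and 0.55, against 1.07 and -0.48 with TMM.

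Sgca (ENSMUSG00000001508, chr11:94962791-94976327, minus strand), a sarcoglycan restricted largely to striated muscle, had 11 and 10 UMIs in sham and 28 and 24 UMIs in overloaded libraries. This gave 47.9 and 45.3 CPM against 72.8 and 48.6 CPM, so that overloaded library 2 lay just above the sham level. The log2 fold change of 0.35 had a 95% interval from -0.47 to 1.17 and an adjusted p of 0.484 in edgeR, and a change of this size was not detectable at this depth. Sgcd (ENSMUSG00000020354, chr11:46896253-47988969, minus strand), which pairs with Sgcb at the core of the sarcoglycan complex, had 0 UMIs in both sham libraries and in overloaded library 1 and 1 UMI in overloaded library 2. It was too low to test, and a count of 0 allows up to 13.1 and 13.6 CPM in the sham libraries and up to 7.8 CPM in overloaded library 1.

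The laminin chains moved in different directions with TMM scaling. Lama2 (ENSMUSG00000019899, chr10:26980036-27619758, minus strand), the alpha chain of the laminin of adult muscle fibres, had 56 and 67 UMIs in sham and 68 and 49 UMIs in overloaded libraries, or 244 and 304 CPM against 177 and 99.2 CPM. The mean fell from 274 ± 42.3 to 138 ± 54.9 CPM (SD, n = 2 each), and the log2 ratio was -1.02 (SE 0.25, adjusted p = 0.003, edgeR). The raw counts overlapped, as they did for Dmd. Without overloaded library 2 the log2 fold change was -0.58 (adjusted p = 0.0509, edgeR), and in UMIs per tube it was -0.07 (adjusted p = 0.838, edgeR), where the call was lost. The exons of Lama2 overlap an antisense gene of the annotation, Gm48084, which had 0 UMIs in each library.

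Lama5 (ENSMUSG00000015647, chr2:180176373-180225859, minus strand), the other alpha chain of the set and one found in many basement membranes, had 5 and 3 UMIs in sham and 14 and 18 UMIs in overloaded libraries, through which alone it passed the filter on low counts. Its levels of 21.8 and 13.6 CPM in sham and 36.4 and 36.5 CPM in overloaded muscle did not overlap, but the log2 fold change of 1.02 (SE 0.49) stood just above the threshold, at an adjusted p of 0.10 in edgeR. With library sizes alone it was 1.3 (adjusted p = 0.0332, edgeR), and with offsets for abundance -0.05 (adjusted p = 0.956, edgeR). As a share of the UMIs of both alpha chains, Lama5 made up 8.2% and 4.29% in sham and 17.1% and 26.9% in overloaded libraries. The Clopper-Pearson 95% intervals were 2.72% to 18.1% and 0.893% to 12% in sham and 9.66% to 27.0% and 16.8% to 39.1% in overloaded libraries, and those of the groups overlapped for each pair of libraries other than sham library 2 and overloaded library 2.

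Lamb1 (ENSMUSG00000002900, chr12:31265234-31329644, plus strand) and Lamc1 (ENSMUSG00000026478, chr1:153218922-153332786, minus strand) encode the beta and gamma chains that join either alpha chain. Lamb1 had 25 and 19 UMIs in sham and 65 and 71 UMIs in overloaded libraries, or 109 and 86.1 CPM against 169 and 144 CPM. The mean of 97.4 ± 16.1 CPM rose to 156 ± 17.8 CPM (SD, n = 2 each), or by 0.67 on the log2 scale (SE 0.25, adjusted p = 0.0398, edgeR). The direction held in all 13 alternatives, and the call was lost in DESeq2 (0.68, adjusted p = 0.257), without sham library 2 (0.47, adjusted p = 0.291, edgeR) and without overloaded library 1 (0.58, adjusted p = 0.154, edgeR). Lamc1, the more abundant, had 107 and 96 UMIs in sham and 112 and 160 UMIs in overloaded libraries, or 466 and 435 CPM against 291 and 324 CPM. Its mean went from 450 ± 21.8 to 308 ± 23.2 CPM (SD, n = 2 each), and the log2 ratio was -0.55 (SE 0.17, adjusted p = 0.0139, edgeR). Without scaling that value was 0.42 (adjusted p = 0.102, edgeR) and with offsets for abundance 0.07 (adjusted p = 0.777, edgeR). The call on Lamc1 was also lost with library sizes alone (-0.27, adjusted p = 0.189, edgeR), in DESeq2 (-0.54, adjusted p = 0.117) and without sham library 1 (-0.53, adjusted p = 0.114, edgeR).

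Within each library, Lamb1 made up 18.9% and 16.5% of the UMIs of Lamb1 and Lamc1 in sham and 36.7% and 30.7% in overloaded muscle. The Clopper-Pearson 95% intervals of the sham libraries reached 26.7% and 24.6%, and those of the overloaded libraries began at 29.6% and 24.9%, so that only sham library 1 and overloaded library 2 had overlapping intervals. The share of Lamb1 was higher in both overloaded libraries, and no scaling of whole libraries alters it. Offsets for abundance, which differ by gene, gave log2 fold changes of 0.68 for Lamb1 and 0.07 for Lamc1, against 0.67 and -0.55 with TMM. The pairs compared by their share of UMIs were chosen after the values had been seen, and genes may differ in how well their ends are captured, so that a share is compared only between libraries.

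**Figure D2:**
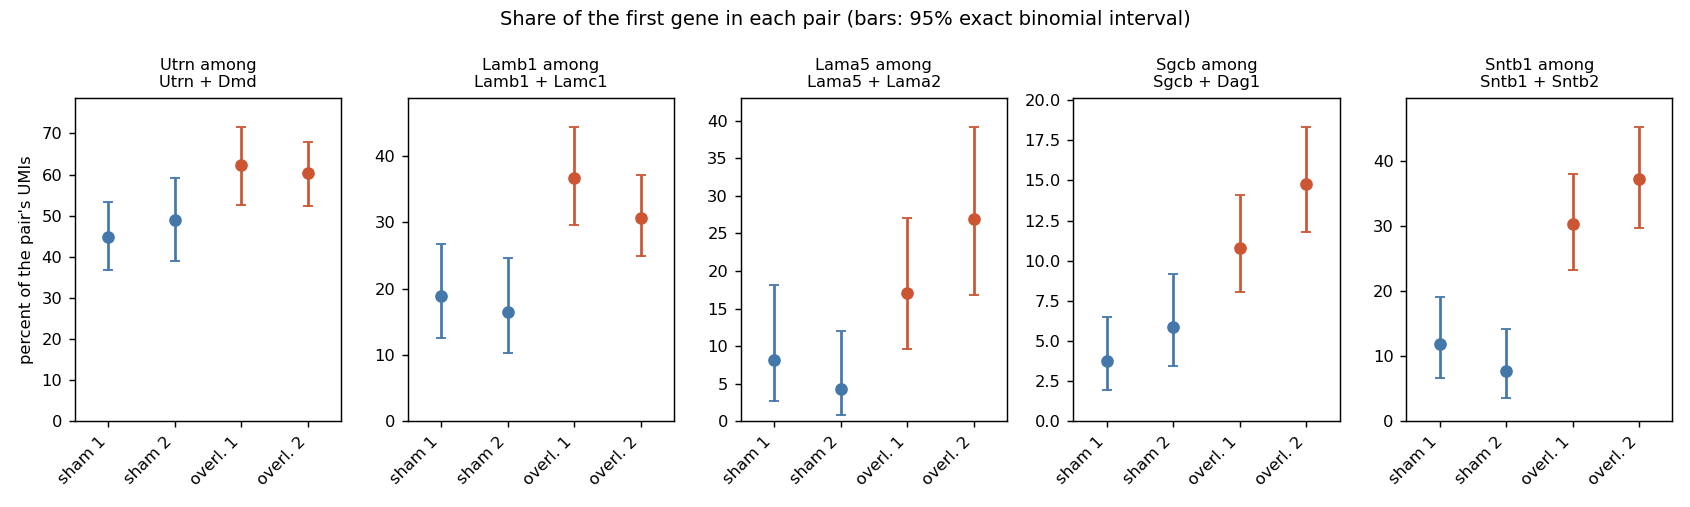
Each panel gives the percent of a pair's UMIs (vertical axis from 0) that belong to the first gene of the pair, per library, with 95% Clopper-Pearson intervals as bars. The share lies higher in both overloaded libraries in all 5 pairs, for example 62.4% and 60.4% against 44.9% and 49.0% for Utrn among Utrn and Dmd.

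The direction of the fold change turned with the scaling for Utrn, Dag1, Lamc1 and Lama5 and held for the other genes tested. The overloaded libraries held more UMIs per cell. The median log2 fold change of all genes was 0.05 with TMM, 0.33 with library sizes alone and 1.01 in UMIs per tube. Of the 9 genes, 5 were higher in UMIs per tube (beside 62.0% of all genes) and 0 lower (beside 4.58%), with none lower at an unadjusted p of 0.05 either. Library sizes alone gave 3 higher and 2 lower (beside 37.3% and 18.7%), offsets for abundance gave 3 and 2 (beside 21.3% and 21.8%), and DESeq2 gave 1 and 3 (beside 9.34% and 11.7%). Calls over all genes split into 1868 higher and 1898 lower with TMM, 2694 and 1351 with library sizes alone, and 4481 and 331 in UMIs per tube. Relative to the median of all genes, Dmd lay at -1.37 and Lama2 at -1.07 with TMM, and at -1.37 and -1.08 in UMIs per tube. Sgcb lay at 1.02 and 1.03 in the same way, and Lamb1 at 0.62 and 0.61. Utrn lay at -0.52 and -0.51, Dag1 at -0.53 and -0.54, Lamc1 at -0.6 and -0.59, Lama5 at 0.97 and 0.95 and Sgca at 0.3 and 0.29. A scaling of whole libraries moves all genes and their median nearly alike. This likeness was thus fixed in advance and sets no gene apart from the others. Summed, the 10 genes made up 0.248% and 0.226% of the UMIs of the sham libraries and 0.214% and 0.202% of those of the overloaded libraries. Genes of high level also had lower fold changes in general. In the tenth of genes with the lowest level, which held Lama5, the median was 0.53 on the log2 scale, and in the tenth with the highest level, which held Dag1 and Lamc1, it was -0.74. The offsets that take out this trend turned the sign of Dag1, Lamc1 and Lama5, and left Dmd at -1.10, Lama2 at -0.79, Lamb1 at 0.68 and Sgcb at a log2 fold change of 1, each past the threshold in edgeR.

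**Figure D3:**
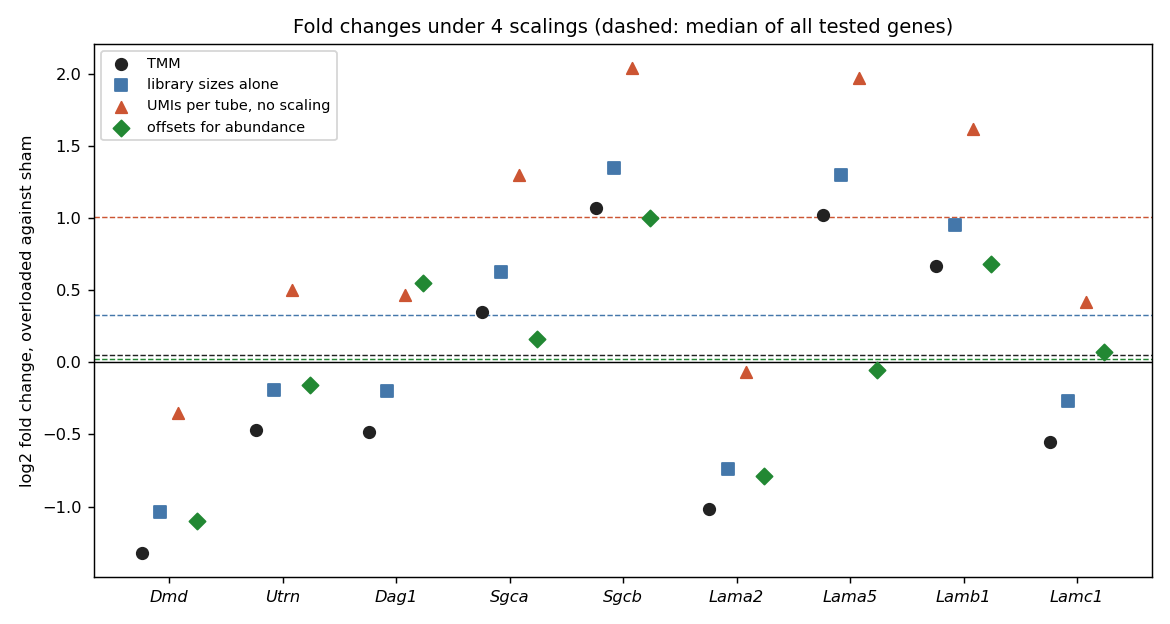
Log2 fold changes (vertical axis) of the 9 tested genes under TMM (circles), library sizes alone (squares), UMIs per tube (triangles) and offsets for abundance (diamonds), with a dashed line at the median of all genes under each. Dmd, Lama2 and Utrn lie below the line of their own scaling each time, and Sgcb, Lamb1 and Sgca lie above it. Dag1 and Lamc1 lie below the line and Lama5 above it with all but the offsets. Scalings of whole libraries move genes and line nearly alike. Utrn, Dag1, Lama5 and Lamc1 lie on both sides of 0.

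Among 14 other genes of the complex, 12 were in the table and 10 could be tested, of which 5 were higher (beside 25.8% of all genes), 4 were lower (beside 26.3%) and 1 did not pass, with a median log2 fold change of 0.10. Among those that rose were genes of a syntrophin, a dystrobrevin, sarcospan and a caveolin. Cav3, the muscle caveolin that binds dystroglycan, had 0 UMIs in both sham libraries and 18 and 22 UMIs in the overloaded libraries. Against a floor of 3 counts over the sham group it was at least 6.84-fold higher. It passed the filter on low counts only through the overloaded libraries, so that its adjusted p of 0.000131 in edgeR, and its place among the 5, rest on that choice.

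Dtna, a dystrobrevin, also passed the filter on low counts only through the overloaded libraries. Its adjusted p and its place among the genes that rose rest on that choice. Dtna had 1 and 5 UMIs in sham and 26 and 49 UMIs in overloaded libraries, a log2 fold change of 2.64 (SE 0.54, adjusted p = 0.000787, edgeR). Omitting sham library 1 it was 1.86 (adjusted p = 0.00498) and without sham library 2 it was 4.14 (adjusted p = 8.08e-06), both in edgeR. Sspn (sarcospan) had 21 and 17 UMIs in sham and 54 and 74 UMIs in overloaded libraries (0.78, adjusted p = 0.0207, edgeR), which did not pass in DESeq2 (adjusted p = 0.199) or without sham library 2 (adjusted p = 0.168, edgeR).

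The beta syntrophins, paralogs that dock signaling proteins to dystrophin, went in opposite directions with TMM scaling. Sntb1 had 14 and 9 UMIs in sham and 48 and 59 UMIs in overloaded libraries (log2 fold change 1.25, SE 0.32, adjusted p = 0.00415, edgeR). Sntb2 had 105 and 108 UMIs in sham and 111 and 100 UMIs in overloaded libraries, or 457 and 489 CPM against 289 and 203 CPM (log2 fold change -0.96, SE 0.19, adjusted p = 0.000623, edgeR). Sntb2 was at -0.01 (adjusted p = 0.957, edgeR) in UMIs per tube. Sntb1 made up 11.8% and 7.69% of the UMIs of both in sham and 30.2% and 37.1% in overloaded libraries, with Clopper-Pearson 95% intervals that reached at most 19.0% in sham and began at 23.2% in overloaded muscle.

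Drp2, a relative of dystrophin known from Schwann cells, was among the more abundant genes of this group in the sorted cells, with 79 and 83 UMIs in sham and 91 and 119 UMIs in overloaded libraries. Its log2 fold change of -0.59 (adjusted p = 0.0108, edgeR) became 0.37 (adjusted p = 0.171, edgeR) in UMIs per tube, and the call was also lost in DESeq2 (adjusted p = 0.12), with library sizes alone (-0.31, adjusted p = 0.143, edgeR) and with offsets for abundance (-0.10, adjusted p = 0.682, edgeR). Sgce, a widely expressed sarcoglycan, was at -0.67 (adjusted p = 0.0883, edgeR) with TMM and at 0.29 (adjusted p = 0.53, edgeR) in UMIs per tube, and the call was also lost in DESeq2 (adjusted p = 0.384), with library sizes alone (adjusted p = 0.319, edgeR), without a filter, in thinned counts and without sham library 1, overloaded library 1 or overloaded library 2 (adjusted p from 0.134 to 0.294, edgeR). Dtnb, the other dystrobrevin, did not pass (-0.87, adjusted p = 0.133, edgeR). The Schwann cell markers summed to 2 and 2 UMIs in sham and 8 and 4 UMIs in overloaded libraries, with Mbp at 0 in both sham libraries and at 1 UMI in each overloaded library.

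**Figure D4:**
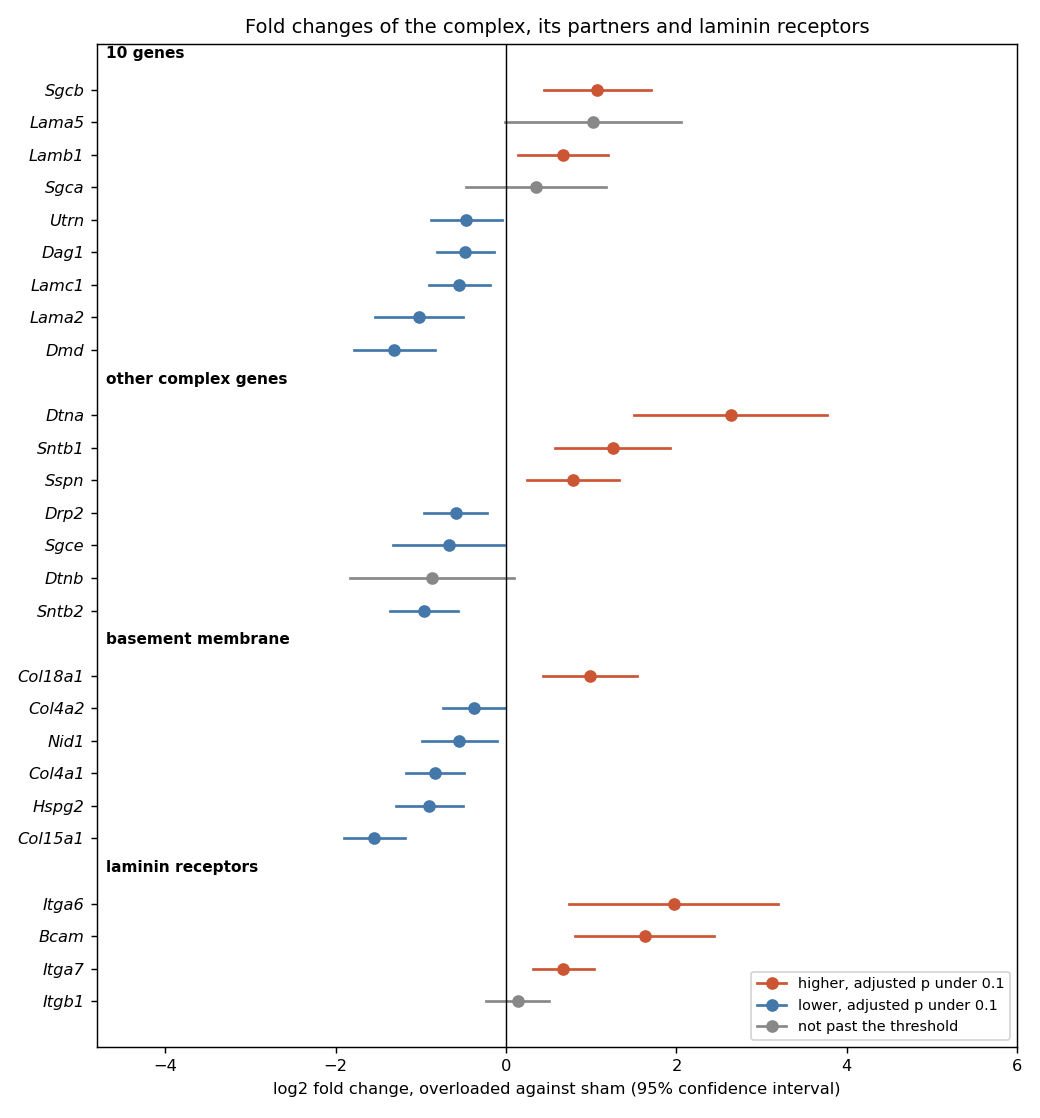
Log2 fold changes of overloaded against sham with TMM scaling (horizontal axis) with 95% confidence intervals, for the 9 tested genes, the other genes of the complex that are reported, basement membrane partners and laminin receptors, colored by adjusted p under 0.1. Cav3 is not drawn because it had no UMI in sham. Rises run up to Dtna at 2.64 and falls down to Col15a1 at -1.55, and the blue points of Utrn, Dag1, Lamc1, Drp2, Sgce, Nid1, Hspg2, Col4a1 and Col4a2 lie above 0 in UMIs per tube.

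The sugar chain by which dystroglycan grips laminin is built by a series of glycosyltransferases such as Pomt1. Of 18 genes of this pathway 17 were in the table, and 9 had enough counts to test. In edgeR 0 of the 9 passed (beside 52.1% of all genes), with 0 at an unadjusted p of 0.05 and 0 in DESeq2 (beside 21.1%), and their median log2 fold change was 0.10. Per tube, 5 were higher (beside 62.0% of all genes), among them Pomgnt1, B4gat1, Dpm2 and Dpm3, with library sizes alone Pomgnt1 (adjusted p = 0.0601) and Dpm3 (adjusted p = 0.055) were higher, with offsets for abundance Dpm1 was lower (adjusted p = 0.0125), and without overloaded library 1 Dpm3 was higher (adjusted p = 0.0996), all in edgeR. The most abundant, Dpm3, which helps to make the mannose donor, had 21 and 25 UMIs in sham and 41 and 77 UMIs in overloaded libraries, and its log2 ratio was 0.38 (adjusted p = 0.272, edgeR). Summed, the 17 genes reached 557 and 494 CPM in sham and 588 and 642 CPM in overloaded muscle.

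Of 7 further laminin chains, Lamb2 alone was abundant enough to test. It had 37 and 38 UMIs in sham and 37 and 79 UMIs in overloaded libraries and did not pass (-0.35, adjusted p = 0.286, edgeR), though it passed without overloaded library 2 (-0.75, adjusted p = 0.0689, edgeR). Lama1 and Lamb3 had 0 UMIs in both sham libraries and at most 3 UMIs in an overloaded library. Lama4, the alpha chain of vessel walls, had 0 and 1 UMIs in sham and 6 and 5 UMIs in overloaded libraries, and Lama3, a chain of epithelia, had 4 and 7 UMIs in sham and 1 and 2 UMIs in overloaded libraries.

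Partners of laminin in the basement membrane were mostly lower with TMM scaling. Of 8 genes 6 could be tested, with 1 higher (beside 25.8% of all genes), 5 lower (beside 26.3%) and a median log2 fold change of -0.69. Col15a1, a collagen that anchors basement membranes to the surrounding matrix, had 151 and 136 UMIs in sham and 77 and 115 UMIs in overloaded libraries. The raw counts did not overlap, and its log2 fold change was -1.55 (SE 0.17, adjusted p = 2.34e-06, edgeR) with TMM and -0.58 (adjusted p = 0.0306, edgeR) in UMIs per tube. Col4a1, a chain of the collagen network of the basement membrane, had 206 and 187 UMIs in sham and 209 and 217 UMIs in overloaded libraries (-0.83, SE 0.16, adjusted p = 0.000645, edgeR). Hspg2 (perlecan) had 76 and 92 UMIs in sham and 69 and 108 UMIs in overloaded libraries (-0.90, SE 0.19, adjusted p = 0.00111, edgeR). Unscaled, Col4a1 was at 0.12 (adjusted p = 0.54) and Hspg2 at 0.08 (adjusted p = 0.81), both in edgeR. With offsets for abundance only Col15a1 and Hspg2 stayed past the threshold among the 5, and Col4a1 was at 0.02 (adjusted p = 0.92, edgeR).

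Col18a1, the collagen from which endostatin is cut, went the other way. It had 16 and 24 UMIs in sham and 75 and 79 UMIs in overloaded libraries, at 0.98 on the log2 scale (SE 0.27, adjusted p = 0.0062, edgeR), and without sham library 1 it was at 0.66 (adjusted p = 0.119, edgeR). Nid1 (nidogen), which links laminin to collagen, was at -0.55 (adjusted p = 0.0402, edgeR) and Col4a2 at -0.38 (adjusted p = 0.0852, edgeR). Both lost the call in DESeq2, with adjusted p-values of 0.276 for Nid1 and 0.341 for Col4a2, and in UMIs per tube Col4a2 was at 0.57 (adjusted p = 0.0211, edgeR) and Nid1 at 0.41 (adjusted p = 0.219, edgeR).

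Of 6 laminin receptors other than dystroglycan 4 could be tested, with 3 higher (beside 25.8% of all genes), 1 that did not pass (also above 0) and a median log2 fold change of 1.15. Of the 3, Bcam and Itga6 had fewer than 10 UMIs in each sham library and passed the filter on low counts only through the overloaded libraries. Their adjusted p-values and their places among the 3 rest on that choice. Itga7, the integrin alpha chain of muscle that binds Lama2-containing laminin and also 1 of the satellite cell markers used here, had 88 and 77 UMIs in sham and 232 and 280 UMIs in overloaded libraries, or 383 and 349 CPM against 603 and 567 CPM. Its log2 fold change was 0.67 (SE 0.17, adjusted p = 0.00355, edgeR), and without sham library 2 it was 0.57 (adjusted p = 0.114, edgeR). Bcam, a receptor of Lama5-containing laminin, had 7 and 6 UMIs in sham and 34 and 45 UMIs in overloaded libraries (1.63, SE 0.39, adjusted p = 0.0025, edgeR).

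Itga6, an integrin alpha chain found on epithelia and progenitor cells, had 1 and 4 UMIs in sham and 20 and 19 UMIs in overloaded libraries, through which alone it passed the filter (1.97, SE 0.58, adjusted p = 0.00995, edgeR). Its call was lost with offsets for abundance (0.55, adjusted p = 0.551, edgeR), in DESeq2 (adjusted p = 0.132), without sham library 1 (1.25, adjusted p = 0.18, edgeR) and without overloaded library 1 (1.78, adjusted p = 0.152, edgeR). Itgb1, the beta chain that pairs with each of these alpha chains, had 116 and 104 UMIs in sham and 231 and 236 UMIs in overloaded libraries and did not pass with TMM (0.14, adjusted p = 0.543, edgeR). It passed with library sizes alone (0.41, adjusted p = 0.0397), with offsets for abundance (0.89, adjusted p = 4.05e-05), in UMIs per tube (1.09, adjusted p = 0.000101) and without overloaded library 2 (0.34, adjusted p = 0.0665), all in edgeR. Over the 6 receptors the summed level was 936 and 870 CPM in sham and 1380 and 1240 CPM in overloaded muscle, while that of the 10 dystrophin complex and laminin genes was 2920 and 2660 CPM against 2160 and 1970 CPM.

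Markers of differentiated muscle and of other cells moved with the groups. All 7 myofibre markers tested were higher (beside 25.8% of all genes). Among the 7, Myh4 had 10 and 5 UMIs in sham and 145 and 79 UMIs in overloaded libraries. On the sham libraries alone Myh4 would not have passed the filter on low counts, so that its place among the 7 rests on that choice. The 10 genes of the list summed to 1890 and 1000 CPM in sham and to 3480 and 3190 CPM in overloaded muscle. The most abundant, Acta1 (skeletal actin), had 120 and 66 UMIs against 299 and 342 UMIs. Without sham library 2, Acta1 (0.45, adjusted p = 0.217), Ckm (0.47, adjusted p = 0.205) and Pvalb (0.12, adjusted p = 0.77) lost the call in edgeR, and Pvalb did so in DESeq2 (adjusted p = 0.519). Myh1 and Myh2 were at 0 in both sham libraries and had 0 and 2 UMIs each in the overloaded libraries. Cav3, a gene of differentiated muscle, stood higher in the same libraries as Acta1, and the part that the myofibre markers have in its values was not tested.

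Markers of fibro-adipogenic cells, which make much of the muscle matrix, summed to 4230 and 4100 CPM in sham and to 3230 and 2780 CPM in overloaded muscle, with 1 higher (beside 25.8% of all genes) and 4 lower (beside 26.3%) of 6 tested, against 4 higher and 2 lower in UMIs per tube (beside 62.0% and 4.58%). Col3a1 was the most abundant, with 508 and 461 UMIs in sham and 618 and 683 UMIs in overloaded libraries, and its log2 fold change of -0.53 with TMM turned to 0.42 in UMIs per tube (adjusted p = 0.00539, edgeR) and to 0.66 with offsets for abundance (adjusted p = 7.56e-05, edgeR). The 1 marker that was higher was Ly6a (Sca-1), with 1 and 0 UMIs in sham and 22 and 41 UMIs in overloaded libraries, through which alone it passed the filter (adjusted p = 0.000109, edgeR), and Pdgfra, the defining receptor of these cells, had 0 UMIs in both sham libraries and 2 and 0 UMIs in the overloaded libraries. The summed level was lower with TMM scaling, as were Lama2 and most of the basement membrane genes. With 2 groups, all genes that fall share this pattern. In UMIs the fibro-adipogenic list summed to 971 and 905 in sham and to 1241 and 1374 in overloaded libraries. Lama2 had 56 and 67 UMIs in sham and 68 and 49 UMIs in overloaded libraries. Endothelial markers summed to 9 and 4 UMIs in sham and 40 and 36 UMIs in overloaded libraries, with Cdh5 the most abundant at 3 and 1 against 14 and 11 UMIs and with Cldn5 and Egfl7 at 0 in both sham libraries and at 1 and 1 and at 7 and 4 UMIs in the overloaded libraries. The part of these cells in the values of the laminin genes was not tested.

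Leukocyte markers summed to 2 and 5 UMIs in sham and 68 and 154 UMIs in overloaded libraries, where 7 of 9 were at 0 in both sham libraries and the most abundant, Lyz2, had 17 and 38 UMIs in overloaded muscle. Mural cell markers summed to 788 and 729 CPM in sham and 1240 and 1410 CPM in overloaded muscle, most of it from Acta2, with 115 and 109 against 356 and 493 UMIs. Of the 4 mural markers tested, Acta2 (0.95, adjusted p = 0.000173) and Rgs5 (1.88, adjusted p = 0.00162) were higher in edgeR. Rgs5 had 13 and 4 UMIs in sham and 38 and 86 UMIs in overloaded libraries. On the sham libraries alone Rgs5 would not have passed the filter on low counts, so that its adjusted p rests on that choice. Tagln was lower (-0.61, adjusted p = 0.0453) and Abcc9 did not pass (adjusted p = 0.437), both in edgeR. Myh11 had 0 UMIs in sham and 0 and 3 UMIs in overloaded libraries. Tenocyte markers summed to 2 and 6 UMIs against 56 and 63 UMIs, led by Scx with 1 and 2 against 40 and 61 UMIs, with Tnmd and Thbs4 at 0 in both sham libraries and at 1 and 0 and at 14 and 0 UMIs in the overloaded libraries. The satellite cell markers summed to 6880 and 6120 CPM in sham and to 5120 and 4570 CPM in overloaded muscle. Of these 10 markers 5 were lower (beside 26.3% of all genes) and 2 were higher (beside 25.8%), against 2 lower and 5 higher in UMIs per tube (beside 4.58% and 62.0%), and the most abundant, Sdc4, had 422 and 284 against 375 and 345 UMIs. The part of any of these lists in the values of Lamb1, Lama5, Sgcb or the laminin receptors was not tested.

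**Figure D5:**
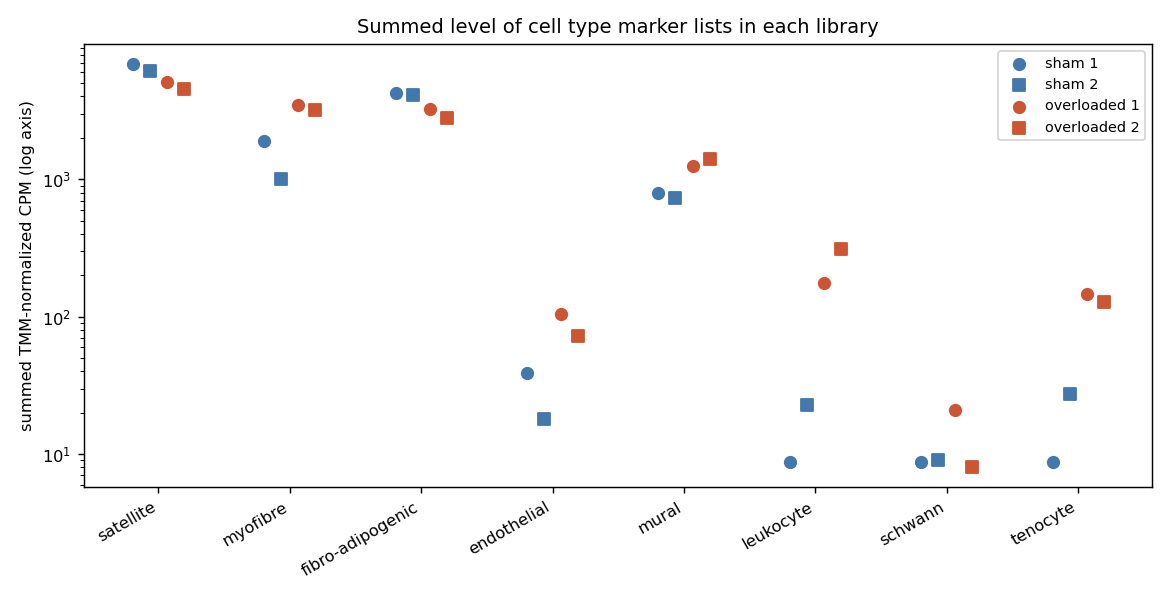
Summed TMM-normalized CPM (vertical log axis) of 8 lists of cell type markers in each library, in blue for sham and red for overloaded. Myofibre, endothelial, mural, leukocyte and tenocyte lists lie higher in both overloaded libraries, and the satellite and fibro-adipogenic lists lie lower.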

How the data were processed

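MuSCs of sham (2 libraries) and overloaded plantaris (2 libraries) were measured by CEL-Seq2. The authors extracted barcodes with UMI-tools 1.0.0, mapped reads to GRCm38 with HISAT2 2.1.0, assigned them to genes with featureCounts 1.6.4, collapsed UMIs by gene, and deposited UMI counts without normalization. The annotation release and strand setting of the counting are not given in the sources used here, and reads of antisense genes could not be told apart.

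From the counts, TMM factors (0.909, 0.908, 1.08 and 1.12) and filterByExpr (minimum count 10, minimum total 15) were applied and 7228 genes were fitted by edgeR 4.0.16 (glmQLFit, glmQLFTest; R 4.3.3, limma 3.58.1), with a prior count of 0.125. DESeq2 1.42.0 was an alternative. Adjusted p-values are Benjamini-Hochberg values over all genes tested, with a threshold of 0.1, the threshold of the study, whose own test was DESeq2. An exact permutation test of 2 against 2 libraries cannot go below p = 0.333 and was not used. Replicates differed with a chi-square of 1.31 per degree of freedom in sham and 1.50 in overloaded muscle, against 6.34 to 7.86 between groups. Floors are 3 counts and intervals are 95%. Floors and Clopper-Pearson intervals cover counting error only, while intervals of log2 fold changes come from the edgeR fit, which takes in the spread between libraries. The fit was tested on simulated data, with no outcome reported here.

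The 10 genes, all lists and the rule for naming genes were chosen with earlier results of these data known. The rule named the 10 genes, from each related list up to 4 genes past the threshold with the smallest p and the gene with the most UMIs, and from each marker list the gene with the most UMIs. Other list genes were named after their values were seen, and some list genes, though counted in the totals of their lists, are not reported here. Alternatives were 3 other scalings, offsets for abundance (loess of log2 CPM, span 0.3), DESeq2, 2 other filters, thinning, a replicate block, a threshold of 0.05 and each library left out. Positions are from GENCODE release M21 (GRCm38), which matched all 19353 gene identifiers, and promoters from RefSeq. Python 3.11.15 was used for annotation and plots.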

Additional observations from a re-analysis of the deposited data

How the results depend on the processing

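Sgcb was past the threshold in all 13 alternatives, and Dmd and Lama2 in each but UMIs per tube. Per tube, 5 of the 10 genes were higher (Dag1, Sgca, Sgcb, Lama5 and Lamb1) and 0 lower in edgeR, beside 62.0% and 4.58% of all genes (4481 and 331), and 18 and 1 of the related genes, against 2, 5, 1868, 1898, 9 and 10 with TMM. The median of all genes is itself moved by 0.96 there. Reversed values in UMIs per tube were 0.50 for Utrn, 0.47 for Dag1 and 0.42 for Lamc1, and with offsets for abundance 0.55 for Dag1, -0.05 for Lama5 and 0.07 for Lamc1. Library sizes alone left 2 of the genes and 5 related genes lower, and offsets left 2 of the genes lower, as each alternative was built to shift fold changes. DESeq2 called 1 gene higher and 3 lower, beside 9.34% and 11.7% of 10348 genes (967 and 1215), and 4 related genes lower, where the cause was not tested. Leaving out each library in turn, with the lone library of a group assumed to vary like the others, gave 1 to 2 of the genes higher and 2 to 5 lower, 1360 to 1668 and 1489 to 1720 of all genes, and 8 to 10 and 7 to 9 related genes. The 2 genes lower without sham library 1 were Dmd and Lama2. Sgca passed in UMIs per tube alone (1.3, adjusted p = 0.0149, edgeR). Lama5 gave no value in the thinned counts or without overloaded library 2, where it fell under the filter, and neither did Cav3 in the thinned counts. With the replicate block the counts were 2 and 5 of the genes, 1806 and 1864 of all genes, and 9 and 10 related genes. Same-numbered libraries did not deviate together (r = -0.0344 over 7228 genes), so the numbers were not taken as pairs. Without adjustment, 3732 genes passed a p of 0.05 in edgeR. Depth left Sgcd untested and gave Sgca and Lama5 wide intervals.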

Other observations

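Of the polarity partners of dystrophin, Mark2, the kinase that dystrophin binds in activated MuSCs, had 45 and 65 UMIs in sham and 60 and 77 UMIs in overloaded libraries, and its log2 fold change was -0.65 (SE 0.22, adjusted p = 0.0225, edgeR) with TMM. Unscaled, it was 0.32 (adjusted p = 0.358, edgeR), and without sham library 2 it was -0.37 (adjusted p = 0.355, edgeR). The call was also lost in DESeq2 (adjusted p = 0.173), with library sizes alone (-0.37, adjusted p = 0.165, edgeR) and with offsets for abundance (-0.41, adjusted p = 0.15, edgeR). Pard3, the polarity protein placed opposite to Mark2 in dividing MuSCs, had 28 and 39 UMIs in sham and 63 and 96 UMIs in overloaded libraries and did not pass (0.28, adjusted p = 0.351, edgeR). Prkci, the atypical protein kinase C that acts with Pard3, had 19 and 20 UMIs against 34 and 40 UMIs (-0.04, adjusted p = 0.934, edgeR). Carm1, the methyltransferase that acts on Pax7, had 1 UMI in overloaded library 2 and 0 in the other libraries.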
